A study of Mus musculus with 9 samples.

Results

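The tumour necrosis factor (TNF) superfamily was followed across 9 colon RNA libraries as the rows whose symbol is Tnf or begins with Tnfsf (ligands) or Tnfrsf (receptors) and a number. This gave 31 of the 21720 genes of the deposited table, 12 ligands and 19 receptors. Tnfrsf17 was left out by that rule, and relatives under other symbols, such as Fas and Cd40, were followed separately. All libraries came from the colon of wild-type female C57BL/6 J mice, with 3 libraries in each of 3 groups. The Normal group was given 0.5% CMC-Na, the vehicle, for 7 days. The Model group was given 5% dextran sulfate sodium (DSS) for 7 days, a chemical that damages the lining of the colon and is used to model ulcerative colitis. The Atorvastatin group was given 10 mg/kg of atorvastatin, a statin, daily for 5 days (days 3 to 7). The labels do not state whether the Atorvastatin mice also drank DSS, give no ages, and do not say that each library came from its own mouse. The p-values therefore reflect only how these libraries vary, which may be technical.

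TNF superfamily ligands are mostly trimers held in the cell membrane or cut from it, and their receptors gather adaptor proteins at the inner face of the membrane. Some receptors carry a death domain and can start apoptosis or necroptosis. Others bind TRAF adaptors directly and switch on NF-kappaB, a transcription factor of inflammatory genes. In the gut the family is best known for TNF itself, the target of antibodies used against inflammatory bowel disease, and for the lymphocyte co-stimulators.

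Libraries held 72584333 to 91737502 estimated counts, and 1 read pair corresponded to about 4 estimated counts. Levels are given as CPM, the count of a gene scaled to a common library depth with TMM factors. Of the 31 members 29 had enough counts to be tested, among 16160 genes. A gene is called higher or lower when its adjusted p in edgeR's quasi-likelihood test is below 0.05, adjusted over all tested genes. Colonocyte and goblet cell genes (6 listed) were abundant in every library, and their sum came mostly from Muc2, Clca1 and Fcgbp. It was 33343 to 80116 CPM in Normal, 22601 to 30319 CPM in Model and 17490 to 25602 CPM in Atorvastatin. Pancreatic acinar genes (10 listed) stood apart in 2 libraries, at 76921 CPM in Model 2 and 32327 CPM in Model 3 against 42.8 to 2321 CPM in the others. Model 3 also stood apart for 4 of 7 small intestinal enterocyte genes, with Apoa1 at 63.7, Apoa4 at 70.2, Lct at 50.3 and Sis at 47.0 CPM, where the other libraries had 0 to 2.60 CPM. Most counts in Model against Normal, and the members called in Atorvastatin against Normal, are therefore also given without Model 2 and Model 3. Model 1 is then the lone library of its group and is assumed to vary like the other groups. In bulk RNA, more cells of a type and more RNA per cell cannot be told apart.

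In Model colon, 7 members rose and 0 fell against Normal, so that 24.1% of the 29 tested members were higher against 4.37% of all tested genes, of which 1.10% were lower. They were Tnf, its receptors Tnfrsf1a and Tnfrsf1b, the B cell survival ligand Tnfsf13b, and the receptors Tnfrsf4, Tnfrsf12a and Tnfrsf14. The 22 others did not pass. The median log2 fold change of the 29 was 0.77, against 0.00 for all tested genes, and 24 of 29 values were positive, against 49.9% of all tested genes. Libraries of Model and Normal did not overlap for 14 members, 13 higher and 1 lower in Model, where 14.0% of all tested genes were wholly higher and 11.7% wholly lower. In Atorvastatin against Model 0 members and 0% of all tested genes passed. In Atorvastatin against Normal 1 member rose (Tnfrsf1b) and 1 fell (Tnfrsf21), where 1.32% of all tested genes were higher and 0.347% lower. Without Model 2 and Model 3 together the members called in Atorvastatin against Normal were Tnfrsf1a and Tnfrsf1b, both higher. The number called in Model against Normal was 3 without Normal 1, 2 without Normal 3, 3 without Model 1, 4 without Model 2, 4 without Atorvastatin 2, 4 without Atorvastatin 3 and 2 without Model 2 and Model 3 together. Tnfrsf1a and Tnfrsf1b passed in each of these fits. The number called over all tested genes also changed when a library was left out, as given in the closing section.

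**Figure D1:**
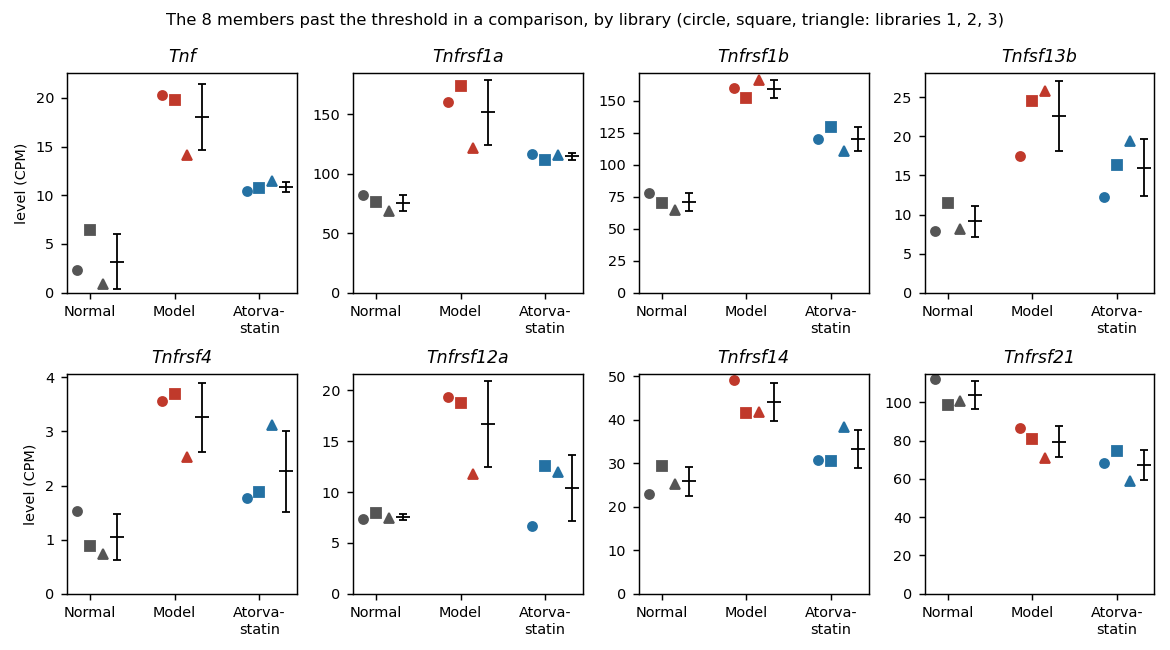
Level in CPM (vertical axes, starting at 0) of the 8 members past the threshold in at least 1 comparison, for each library by group; symbols are libraries and the bar beside them is the mean with its SD (n = 3). For Tnf, Tnfrsf1a, Tnfrsf1b and Tnfrsf14 the Atorvastatin libraries lie below all Model libraries and above all Normal libraries. Of all tested genes 7.70% were wholly lower than Model and 13.5% wholly higher than Normal, each taken alone.

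Tnf encodes the founding ligand, made by macrophages and T cells among others. Its level in Normal 1 to 3 was 2.29, 6.39 and 0.899 CPM. In Model 1 to 3 it was 20.3, 19.8 and 14.2 CPM, and in Atorvastatin 1 to 3 it was 10.4, 10.7 and 11.4 CPM. The groups did not overlap, and the Atorvastatin libraries lay close together between the other two groups. The rise in Model was 2.50 ± 0.57 on the log2 scale (SE, adjusted p = 0.04; chromosome 17, 35418357 to 35420983, coordinates as deposited, for which mm39 is the mouse build in the submitters' processing notes). Against Model the Atorvastatin difference was -0.74 (95% interval -1.95 to 0.48, adjusted p = 0.641), and against Normal it was 1.76 ± 0.56 (adjusted p = 0.168). Without Normal 2, the highest of its group, the Model difference was 3.51 (adjusted p = 0.00795) and the Atorvastatin difference from Normal 2.77 (adjusted p = 0.0221). The adjusted p of the rise in Model was 0.12 without Normal 1, 0.0649 without Normal 3, 0.103 without Model 1, 0.08 without Model 2, 0.0593 to 0.063 without any of the Atorvastatin libraries, 0.0886 with only the Model and Normal libraries in the fit, and 0.116 without Model 2 and Model 3 together.

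Both TNF receptors rose in Model. Tnfrsf1a encodes TNFR1, the death-domain receptor found on nearly all cells. Its level was 82.0, 75.8 and 68.6 CPM in Normal 1 to 3, 159.8, 174 and 121 CPM in Model 1 to 3, and 117, 111 and 116 CPM in Atorvastatin 1 to 3. Every Model library was above every Normal library, and the Atorvastatin libraries lay between them without overlap. Tnfrsf1a rose by 1.01 ± 0.14 on the log2 scale in Model (2.01-fold, adjusted p = 0.00817; chromosome 6, 125326414 to 125339447). Tnfrsf1b encodes TNFR2, a receptor without a death domain that is prominent on leukocytes and endothelium. Its level was 77.8, 70.1 and 64.3 CPM in Normal 1 to 3, 160.1, 152 and 166 CPM in Model 1 to 3, and 120.0, 129.6 and 111 CPM in Atorvastatin 1 to 3. As with TNFR1 the groups formed separate bands, with narrow spreads. The rise of 1.17 ± 0.11 in Model (2.25-fold, adjusted p = 0.00287; chromosome 4, 144940033 to 144973440) was rank 8 by p of the 16160 tested genes. Across the 21 alternatives, Tnfrsf1a and Tnfrsf1b kept their calls in Model against Normal, with adjusted p of at most 0.0485 and 0.0205.

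In Atorvastatin, Tnfrsf1b was higher than in Normal (0.76 ± 0.11, 1.70-fold, adjusted p = 0.0162), as the only member that rose. That call was lost when Normal 1 (adjusted p = 0.051), Normal 3 (0.0928) or Atorvastatin 1 (0.0542) was left out. Tnfrsf1a differed from Normal by 0.60 ± 0.14 without passing (adjusted p = 0.0746), and passed at 0.0255 without Model 3. Against Model, Atorvastatin values were -0.40 for Tnfrsf1a (95% interval -0.72 to -0.08, unadjusted p = 0.0186, adjusted p = 0.351) and -0.41 for Tnfrsf1b (-0.66 to -0.16, unadjusted p = 0.00479, adjusted p = 0.323). These intervals lie below 0, yet neither difference passed over all genes. Per kilobase of annotated exon, Tnfrsf1a (44.0 CPM per kb), Tnfrsf1b (30.6) and Tnfrsf14 (23.9) had the highest mean levels of the 31 members over all libraries, while Tnf was at 6.53 CPM per kb.

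The 250 bases before the annotated RefSeq starts of Tnf, Tnfrsf1a and Tnfrsf1b (GRCm38.p6, sense strand) are shown, with matches to the motifs searched in capitals. Any part of these bases in the rises was not tested.
Tnf, chr17:35202008-35202257, minus strand: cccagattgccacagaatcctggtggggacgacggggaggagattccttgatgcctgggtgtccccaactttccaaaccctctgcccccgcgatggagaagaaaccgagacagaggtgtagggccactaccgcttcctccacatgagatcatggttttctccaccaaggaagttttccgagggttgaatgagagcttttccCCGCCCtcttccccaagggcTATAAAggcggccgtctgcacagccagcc
Tnfrsf1a, chr6:125349473-125349722, plus strand: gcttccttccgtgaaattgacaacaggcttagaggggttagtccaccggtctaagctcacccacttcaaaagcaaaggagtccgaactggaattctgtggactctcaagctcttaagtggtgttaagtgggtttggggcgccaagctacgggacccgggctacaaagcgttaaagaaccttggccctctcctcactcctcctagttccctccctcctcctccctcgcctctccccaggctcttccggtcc
Tnfrsf1b, chr4:145246871-145247120, minus strand: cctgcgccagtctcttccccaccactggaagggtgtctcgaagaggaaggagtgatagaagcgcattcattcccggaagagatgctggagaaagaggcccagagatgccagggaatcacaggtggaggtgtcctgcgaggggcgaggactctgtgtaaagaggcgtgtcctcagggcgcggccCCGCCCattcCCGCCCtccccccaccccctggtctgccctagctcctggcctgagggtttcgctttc

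The motifs searched on both strands were the TATA box with the letters TATAAA, the GC box with the letters GGGCGG, the AP-1 site with the letters TGANTCA, and a 10-base NF-kappaB-like site. Tnf held a TATA box starting 29 bases before the start and a GC box on the opposite strand, Tnfrsf1b held 2 GC boxes, and Tnfrsf1a held none of the 4 motifs. Promoters of 24 of the 31 members were matched by symbol, in 28 windows. The NF-kappaB-like site was in 0 of these 28 windows and in 1.21% of all 32851 windows, TATAAA in 4 and 12.4%, GGGCGG in 11 and 32.7%, and TGANTCA in 5 and 6.75%. No match says only that these letters are not in this window.

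Among the B cell survival factors, Tnfsf13b rose and its relatives did not pass. Tnfsf13b encodes BAFF, a ligand released by myeloid and stromal cells that keeps B cells alive. Its level was 7.83, 11.5 and 8.20 CPM in Normal 1 to 3, 17.5, 24.6 and 25.8 CPM in Model 1 to 3, and 12.2, 16.3 and 19.5 CPM in Atorvastatin 1 to 3. All Model libraries were above all Normal libraries, and so were all Atorvastatin libraries, which overlapped with Model. It rose by 1.30 ± 0.24 on the log2 scale in Model (2.47-fold, adjusted p = 0.0185; chromosome 8, 10056633 to 10089072). In Atorvastatin it was 0.80 ± 0.24 above Normal (adjusted p = 0.145) and at -0.50 against Model (95% interval -1.03 to 0.03, adjusted p = 0.448). The rise no longer passed when Normal 1 (adjusted p = 0.069), Normal 3 (0.0939) or both Model 2 and Model 3 (0.151) were left out.

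Tnfsf13 encodes APRIL, which sustains plasma cells. It was at 11.7, 15.0 and 16.2 CPM in Normal 1 to 3, 15.3, 11.6 and 8.99 CPM in Model 1 to 3, and 7.82, 13.3 and 9.71 CPM in Atorvastatin 1 to 3. The groups overlapped (Model minus Normal -0.26 ± 0.26, adjusted p = 0.616), and the counts are uncertain because the read-through gene Tnfsfm13 spans all of Tnfsf13 and Tnfsf12. Tnfrsf13c encodes the BAFF receptor of B cells. It was at 6.74, 1.43 and 0.668 CPM in Normal 1 to 3, 0.920, 0.256 and 3.74 CPM in Model 1 to 3, and 1.61, 0.453 and 2.84 CPM in Atorvastatin 1 to 3. Normal 1 was the highest library, followed by Model 3, and the groups overlapped (-0.85 ± 1.08, adjusted p = 0.71).

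Tnfrsf13b encodes TACI, a receptor of B and plasma cells for BAFF and APRIL. It ranged from 3.02 to 8.39 CPM in Normal, 4.37 to 11.4 CPM in Model and 3.96 to 6.58 CPM in Atorvastatin, without passing (Model minus Normal 0.15 ± 0.46, adjusted p = 0.893). The 11 listed B cell and lymphoid follicle genes summed to 253, 62.4 and 34.0 CPM in Normal 1 to 3, 65.3, 28.2 and 156 CPM in Model 1 to 3 and 52.8, 28.9 and 113 CPM in Atorvastatin 1 to 3. In each group the library with the highest Tnfrsf13c also had the highest sum of these genes. For Tnfrsf13b this held in Model and Atorvastatin but not in Normal, where it was at 7.79 CPM in Normal 1 and 8.39 CPM in Normal 2. Where 4.37% of all tested genes were higher in Model, 1 of the 11 rose, the follicle chemokine Cxcl13, and 10 did not pass. Their part in the values of these receptors was not tested.

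Tnfrsf4 encodes OX40, a receptor of activated and regulatory T cells, and it rose in Model. Its level was 1.53, 0.877 and 0.732 CPM in Normal 1 to 3, 3.56, 3.69 and 2.53 CPM in Model 1 to 3, and 1.78, 1.88 and 3.13 CPM in Atorvastatin 1 to 3. Model and Atorvastatin libraries were all above the Normal libraries and overlapped with each other. Tnfrsf4 rose by 1.64 ± 0.38 in Model (3.11-fold, adjusted p = 0.0423; chromosome 4, 156098300 to 156101069), with 1.11 ± 0.38 for Atorvastatin minus Normal (adjusted p = 0.201) and -0.53 ± 0.37 for Atorvastatin minus Model (adjusted p = 0.629). The call sat near the threshold: the adjusted p was 0.127 without Normal 2, 0.162 without Normal 3, 0.121 without Model 1, 0.095 without Model 2, 0.0536, 0.0632 and 0.0514 without Atorvastatin 1, 2 and 3, 0.0506 with library size alone as the scale, 0.0727 with only Model and Normal in the fit and 0.125 without Model 2 and Model 3 together. Its ligand Tnfsf4 had 5 estimated counts in Normal, 24 in Model and 13 in Atorvastatin over the 3 libraries of each group, or about 1, 6 and 3 read pairs, and was not tested.

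Markers of T cells passed only in part in Model. Of 4 regulatory T cell markers 2 rose in Model (4.37% of all tested genes were higher), Il2ra and Ctla4, which activated T cells also carry. The defining Foxp3 was at 0.10 ± 0.42 (adjusted p = 0.925). The 4 summed to 7.66 to 22.2 CPM in Normal, 30.3 to 38.6 CPM in Model and 19.0 to 38.6 CPM in Atorvastatin. Of 8 general T cell markers 0 passed in edgeR's test, with 4 at an unadjusted p below 0.05, a level reached by 20.9% of all tested genes. All 8 values were positive (49.9% over all tested genes), with a median of 1.04. In Model 5 of the 8 lay wholly above Normal (14.0% of all tested genes). The 8 summed to 31.5 to 105 CPM in Normal, 107 to 137 CPM in Model and 68.5 to 149 CPM in Atorvastatin. Without Model 2 and Model 3 together 0 of the 4 regulatory T cell markers and 0 of the 8 T cell markers passed. Their part in the rise of Tnfrsf4 was not tested.

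Tnfrsf9 (4-1BB, a co-stimulator of activated T and NK cells) is described because it just missed the threshold, a choice made after its values were seen. It was at 1.16, 1.002 and 0.424 CPM in Normal 1 to 3, 2.06, 5.16 and 2.76 CPM in Model 1 to 3, and 4.53, 2.15 and 5.17 CPM in Atorvastatin 1 to 3. Both other groups lay wholly above Normal and overlapped with each other. The values were 1.95 ± 0.52 for Model minus Normal (adjusted p = 0.0651) and 2.19 ± 0.52 for Atorvastatin minus Normal (adjusted p = 0.0789), and DESeq2 called both (adjusted p = 0.00354 and 0.00114). Its span overlaps that of Camta1, and the counting is not stated to use strand. Its ligand Tnfsf9 had overlapping groups, at 0.501 to 1.29 CPM in Normal, 0.994 to 2.11 CPM in Model and 1.22 to 2.54 CPM in Atorvastatin.

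Tnfrsf18 (GITR, a receptor of regulatory T cells) did not pass, at 4.37 to 5.48 CPM in Normal, 5.76 to 8.79 CPM in Model and 6.16 to 7.24 CPM in Atorvastatin (Model minus Normal 0.52 ± 0.21, adjusted p = 0.193). Its ligand Tnfsf18 had 4 estimated counts in Normal 2, 8 in Atorvastatin 3 and 0 in the 7 other libraries, about 3 read pairs in all, and was not tested. Tnfsf15 (TL1A, a ligand whose human gene is linked to inflammatory bowel disease) was at 3.91 to 6.06 CPM in Normal, 6.22 to 7.52 CPM in Model and 4.04 to 6.97 CPM in Atorvastatin. It did not pass (0.47 ± 0.25, adjusted p = 0.329). The receptor for TL1A, Tnfrsf25 (DR3), was at 1.35 to 2.30 CPM in Normal, 0.847 to 1.98 CPM in Model and 0.784 to 1.33 CPM in Atorvastatin. Model minus Normal was -0.49 ± 0.41 (adjusted p = 0.553) and Atorvastatin minus Normal -0.74 ± 0.41 (adjusted p = 0.448). Its Atorvastatin libraries lay wholly below Normal, as for 11.2% of all tested genes.

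Tnfrsf14 encodes HVEM, a receptor of epithelial and immune cells for LIGHT and BTLA, and it rose in Model. Its level was 22.8, 29.3 and 25.3 CPM in Normal 1 to 3, 49.2, 41.5 and 41.8 CPM in Model 1 to 3, and 30.9, 30.5 and 38.3 CPM in Atorvastatin 1 to 3. The groups did not overlap, with Atorvastatin between the others. The rise was 0.77 ± 0.15 (1.71-fold, adjusted p = 0.0218; chromosome 4, 155006390 to 155013020). Against Model the Atorvastatin value was -0.41 (95% interval -0.74 to -0.08, adjusted p = 0.359), and against Normal it was 0.36 ± 0.15 (adjusted p = 0.286). Leaving out Normal 1 (adjusted p = 0.0774), Normal 3 (0.0986), Model 1 (0.0743) or both Model 2 and Model 3 (0.0581) ended the call. The ligand of HVEM, Tnfsf14 (LIGHT), was at 1.36, 1.14 and 0.424 CPM in Normal 1 to 3, 3.18, 3.23 and 1.01 CPM in Model 1 to 3, and 2.24, 1.34 and 2.10 CPM in Atorvastatin 1 to 3. Model 3 fell within the range of Normal, and the difference did not pass (1.34 ± 0.55, adjusted p = 0.202).

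Tnfrsf12a encodes Fn14, the small receptor for TWEAK that appears on injured epithelium and fibroblasts. Its level was 7.35, 7.91 and 7.49 CPM in Normal 1 to 3, 19.4, 18.8 and 11.8 CPM in Model 1 to 3, and 6.68, 12.5 and 12.0 CPM in Atorvastatin 1 to 3. Normal libraries were tightly grouped below all Model libraries, while Atorvastatin 1 was the lowest of the 9. Tnfrsf12a rose by 1.14 ± 0.27 in Model (2.20-fold, adjusted p = 0.0453; chromosome 17, 23894419 to 23896442). Atorvastatin differed from Model by -0.68 (95% interval -1.29 to -0.07, adjusted p = 0.376) and from Normal by 0.46 ± 0.27 (adjusted p = 0.477). The adjusted p of the rise was 0.124, 0.112 and 0.167 without Normal 1, 2 and 3, 0.139 without Model 1, 0.109 without Model 2, 0.0612 without Atorvastatin 2, 0.0669 without Atorvastatin 3, 0.0555 with library size alone as the scale, 0.0678 in limma-voom and 0.0794 without Model 2 and Model 3 together. Its ligand Tnfsf12 (TWEAK) was at 3.79, 5.04 and 5.37 CPM in Normal 1 to 3, 5.38, 7.16 and 5.46 CPM in Model 1 to 3, and 4.20, 5.67 and 5.36 CPM in Atorvastatin 1 to 3. It did not pass (0.34 ± 0.23, adjusted p = 0.436), although the Model libraries lay just above the Normal ones.

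The member that fell was Tnfrsf21, which encodes DR6, a death-domain receptor with no ligand among the members. Its level was 112, 98.6 and 101 CPM in Normal 1 to 3, 86.7, 80.7 and 71.0 CPM in Model 1 to 3, and 68.2, 74.7 and 58.8 CPM in Atorvastatin 1 to 3. Both other groups lay wholly below Normal and overlapped with each other. It fell by 0.63 on the log2 scale in Atorvastatin against Normal (SE 0.13, adjusted p = 0.0458; chromosome 17, 43327446 to 43400080), where 0.347% of all tested genes were lower. In Model against Normal the value was -0.38 ± 0.12 (adjusted p = 0.115). The fall in Atorvastatin had an adjusted p of 0.0531 to 0.157 without any 1 library other than Model 3, the lowest without Atorvastatin 2 and the highest without Atorvastatin 3. It was 0.0992 with library size alone as the scale, 0.0611 in limma-voom, 0.058 with only the 2 groups in the fit and 0.0601 without Model 2 and Model 3 together.

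**Figure D2:**
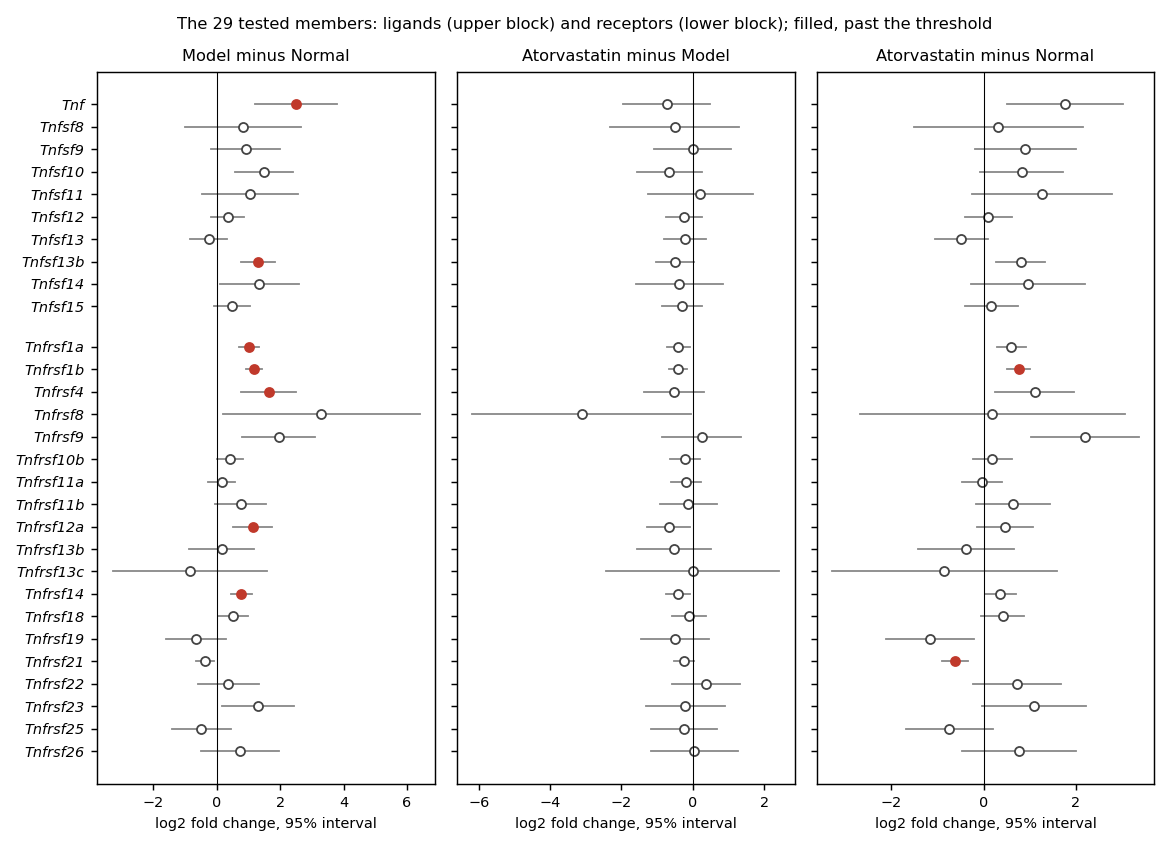
Log2 fold change (horizontal axes) with its 95% interval for the 29 tested members, ligands above and receptors below, in the 3 comparisons; filled points passed the threshold. Members lie mostly to the right of 0 in Model minus Normal and mostly to the left in Atorvastatin minus Model, where no point is filled.

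The death receptor pair and the bone-remodelling trio did not pass. Tnfsf10 encodes TRAIL, a death ligand, and was chosen for description after its values were seen. It was at 47.0, 75.8 and 36.5 CPM in Normal 1 to 3, 129, 140.1 and 176 CPM in Model 1 to 3, and 40.4, 122 and 119 CPM in Atorvastatin 1 to 3. All Model libraries were above all Normal libraries, and Atorvastatin 1 lay within the Normal range, apart from its group. The Model difference of 1.48 ± 0.41 did not pass (adjusted p = 0.0728), but passed without Atorvastatin 1 (0.0232), with only Model and Normal in the fit (0.0417) and in DESeq2 (0.00299). Its receptor Tnfrsf10b was at 11.4 to 11.8 CPM in Normal, 13.3 to 17.3 CPM in Model and 10.4 to 16.1 CPM in Atorvastatin (0.42 ± 0.18, adjusted p = 0.235).

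Tnfsf11 (RANKL, which guides M cell and osteoclast formation) was scarce, at 0.154 to 0.724 CPM in Normal, 0.578 to 1.01 CPM in Model and 0.419 to 1.62 CPM in Atorvastatin. Its receptor Tnfrsf11a (RANK) was abundant, at 104 to 133 CPM in Normal, 124 to 146 CPM in Model and 94.7 to 156 CPM in Atorvastatin. The decoy receptor Tnfrsf11b (osteoprotegerin) was at 1.25 to 2.93 CPM in Normal, 2.54 to 4.28 CPM in Model and 2.77 to 4.02 CPM in Atorvastatin. The Model differences were 1.06 ± 0.67, 0.16 ± 0.19 and 0.76 ± 0.36 in this order (adjusted p = 0.413, 0.698 and 0.267), and the groups overlapped for all of them.

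Tnfrsf8 encodes CD30, a receptor of activated lymphocytes, and was singled out after its values were seen because its libraries were widely scattered. It was at 0.568, 9.64 and 1.54 CPM in Normal 1 to 3, 77.2, 2.06 and 36.8 CPM in Model 1 to 3, and 1.52, 10.0 and 1.91 CPM in Atorvastatin 1 to 3. Model 1 and Model 3 stood far above the other 7 libraries, while Model 2 lay within the Normal range. The difference of 3.30 ± 1.38 between Model and Normal did not pass (adjusted p = 0.209), nor did -3.11 ± 1.36 between Atorvastatin and Model (adjusted p = 0.419). Its ligand Tnfsf8 was at 2.65, 0.313 and 0.360 CPM in Normal 1 to 3 and 1.78, 1.75 and 2.37 CPM in Model 1 to 3 (0.83 ± 0.81, adjusted p = 0.614).

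The remaining receptors were low. Tnfrsf19 (TROY, a Wnt target of intestinal stem cells) was at 2.36 to 3.26 CPM in Normal, 0.840 to 2.45 CPM in Model and 0.941 to 1.53 CPM in Atorvastatin (Model minus Normal -0.66 ± 0.42, adjusted p = 0.415). Its Atorvastatin libraries lay wholly below Normal, as for 11.2% of all tested genes, without passing (-1.16 ± 0.42, adjusted p = 0.236). The mouse receptors Tnfrsf22, Tnfrsf23 and Tnfrsf26 lie side by side on chromosome 7 and are close paralogs, between which reads may be split, so the counts of each are uncertain. Over the 9 libraries they ranged from 0.827 to 2.22, from 1.002 to 5.90 and from 0.385 to 1.65 CPM. Their Model differences were 0.37 ± 0.42, 1.30 ± 0.50 and 0.72 ± 0.55 (adjusted p = 0.677, 0.179 and 0.501).

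**Figure D3:**
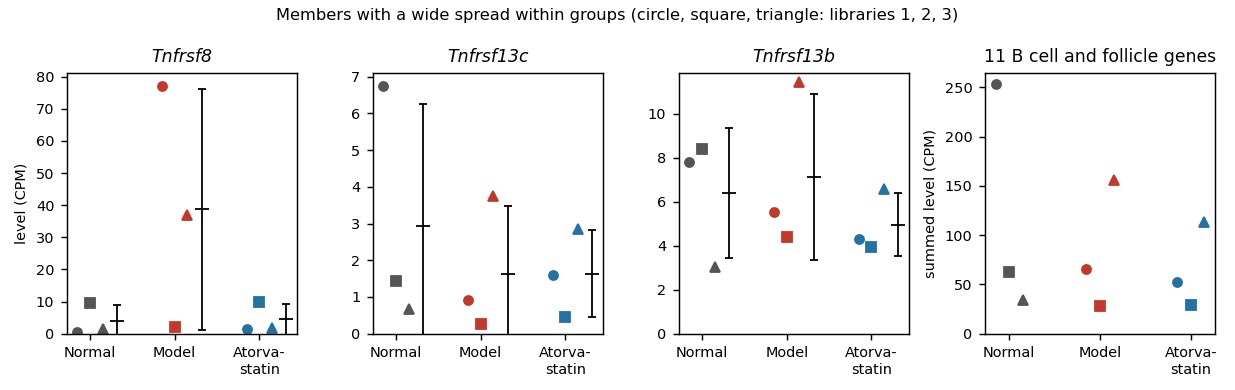
Level in CPM of Tnfrsf8, Tnfrsf13c and Tnfrsf13b by library (bars, mean and SD, n = 3, drawn no lower than 0) and, at the right, the summed level of the 11 B cell and follicle genes. Model 1 and Model 3 stand high for Tnfrsf8, and the library with most Tnfrsf13c in each group also has the highest B cell sum. For Tnfrsf13b this does not hold in Normal, where Normal 2 is highest.

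For Atorvastatin against Model, edgeR called 0 of 29 members and 0% of all tested genes, with 5 members at an unadjusted p below 0.05 (11.8% of all tested genes were at that level). Those 5 were Tnfrsf1a, Tnfrsf1b, Tnfrsf14, Tnfrsf12a and Tnfrsf8, with negative values. DESeq2 and limma-voom also called 0 members, while DESeq2 called 312 genes in all. Atorvastatin libraries lay wholly below Model for 5 members, Tnf, Tnfrsf1a, Tnfrsf1b, Tnfrsf14 and Tnfsf10, and wholly above for 0, where 7.70% of all tested genes were wholly lower and 7.90% wholly higher. Of 29 values 5 were positive (46.2% over all tested genes) and 24 negative, with a median of -0.25 against -0.03 for all genes, but with library size alone as the scale 17 were negative, with a median of -0.04 against 0.21. Atorvastatin against Normal gave 22 of 29 positive values (51.3% over all tested genes), a median of 0.46 against 0.01, 9 members at an unadjusted p below 0.05 (15.2%), and calls for 2 members (1.67%), 1 member higher (1.32% of all tested genes) and 1 lower. With library size alone as the scale the calls were 3 higher and 0 lower. Atorvastatin libraries lay wholly above Normal for 9 members and wholly below Normal for 3. Over all tested genes 13.5% were wholly higher and 11.2% wholly lower. The comparisons share libraries, so their values are set side by side only.

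In Model against Normal 4.37% of all tested genes were higher and 1.10% lower, with a median log2 fold change of 0.00. Downstream of the receptors, of 16 NF-kappaB subunits and feedback inhibitors, 4 rose and 0 fell, with a median of 0.52. These were the inhibitor genes Nfkbia and Tnfaip3 and the IkappaB-family genes Nfkbiz and Bcl3. Bcl3 went from 43.4 ± 5.90 CPM in Normal to 71.7 ± 6.52 CPM in Model (SD, n = 3; log2 fold change 0.72 ± 0.13, adjusted p = 0.0196). Nfkbia went from 51.7 ± 4.79 to 94.4 ± 9.32 CPM (0.87 ± 0.17, adjusted p = 0.0246). Without Model 2 and Model 3 together 0 of the 16 passed.

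Where 4.37% of all tested genes were higher and 1.10% lower in Model, 9 of 14 listed TNF targets rose and 0 fell (median 2.55). Named here because they passed, they were Icam1, Vcam1, Sele, Selp and Madcam1, which encode adhesion molecules of vessels, the chemokine genes Cxcl1, Cxcl2 and Ccl2, and the cytokine gene Il1b. Ccl2, a monocyte attractant, rose by 2.82 ± 0.34 in Model (adjusted p = 0.00445) and by 2.48 ± 0.33 in Atorvastatin against Normal (adjusted p = 0.0133). Cxcl2, a neutrophil attractant, had 30 estimated counts over the Normal libraries, about 8 read pairs, and reached 4.88 ± 2.31 CPM in Model and 8.19 ± 5.81 CPM in Atorvastatin. In Atorvastatin against Normal 4 of the 14 rose, Cxcl1, Cxcl2, Ccl2 and Il1b, where 1.32% of all tested genes were higher. In Atorvastatin against Model 0 of the 14 passed in edgeR's test. At an unadjusted p below 0.05 there were 0, against 11.8% of all tested genes. Any part of TNF in the rises of these listed genes was not tested.

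Of 18 TRAF adaptors and kinases of receptor signalling, 0 passed in Model against Normal in edgeR's test, with 3 at an unadjusted p below 0.05 (20.9% of all tested genes) and a median of 0.08. The next 3 lists are read against the 4.37% of all tested genes that were higher. Of 9 genes of death signalling 1 rose, the necroptosis kinase gene Ripk3, from 41.9 ± 10.8 to 114 ± 27.3 CPM (1.44 ± 0.23, adjusted p = 0.0119). Of 6 genes of shedding and processing 2 rose, Rhbdf2, which encodes a partner of the TNF-cleaving protease ADAM17 (0.78 ± 0.16, adjusted p = 0.0282), and its inhibitor gene Timp3 (0.84 ± 0.19, adjusted p = 0.04). Adam17 itself, added after its values were seen, was at 0.13 ± 0.16 (adjusted p = 0.687). Without Model 2 and Model 3 together these lists held 0 and 1 passing genes. Of 14 superfamily genes under other symbols 13 were tested and 1 rose, the death receptor gene Fas, from 5.60 ± 2.09 to 18.1 ± 2.95 CPM (1.69 ± 0.29, adjusted p = 0.0145), and 0 passed without Model 2 and Model 3 together.

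**Figure D4:**
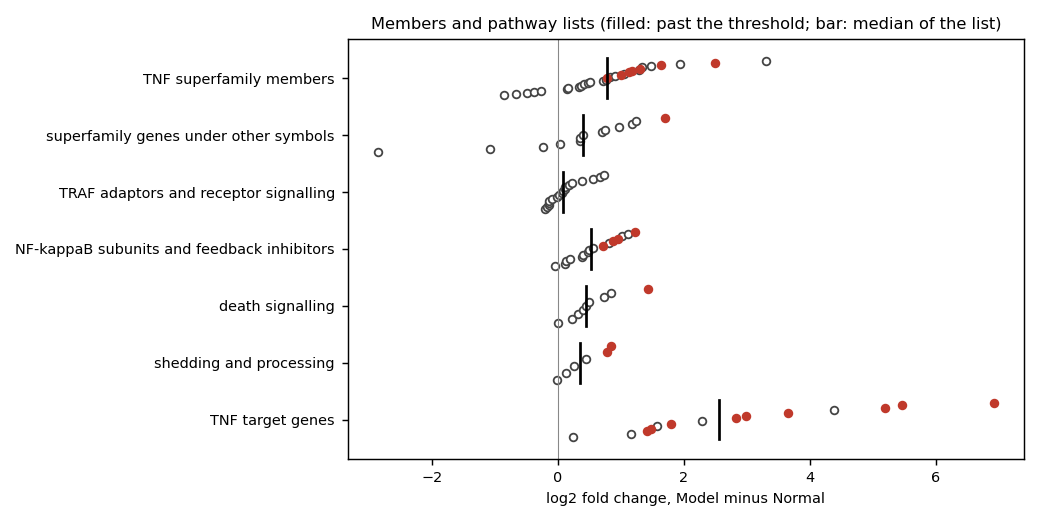
Log2 fold change of Model minus Normal (horizontal axis) for the tested superfamily members and each pathway list; filled points passed the threshold and the vertical bar is the median of the list. TNF target genes lie farthest to the right, with 9 of 14 filled, and the TRAF adaptors have a median of 0.08 with none filled.

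Markers of cells that carry these members also moved. The share of all tested genes that were higher in Model was 4.37%. By list, 6 of 8 neutrophil and monocyte markers and 4 of 8 macrophage and dendritic cell markers rose. A rise was also called for 6 of 7 fibroblast markers and 2 of 7 endothelial markers. Of 7 epithelial markers 0 passed in edgeR's test (2 at an unadjusted p below 0.05, against 20.9% of all tested genes). Without Model 2 and Model 3 together these counts were 5, 2, 4 and 4, and 1 epithelial marker was lower. Of the 6 colonocyte and goblet cell genes 0 passed in Model, with 6 negative values and 2 at an unadjusted p below 0.05. Their summed level, mostly Muc2, Clca1 and Fcgbp, was lower in every Model and Atorvastatin library than in any Normal library. Taken singly, 1 of the 6 lay wholly below Normal in Model and 3 in Atorvastatin. Over all tested genes 11.7% and 11.2% did. In Atorvastatin against Normal 1 of the 6 was called lower, Clca1, where 0.347% of all tested genes were lower. Of the 6 values 5 were negative and 1 was positive, with a median of -1.53. The positive value was that of Car1, at 2795, 554 and 3176 CPM in Atorvastatin 1 to 3, against 663 to 1330 CPM in Normal. The summed level of the macrophage and dendritic cell markers was 125 to 207 CPM in Normal, 340.3 to 407 CPM in Model and 301 to 315 CPM in Atorvastatin. For neutrophil and monocyte markers it was 10.9 to 25.6, 55.6 to 102 and 37.4 to 103 CPM, and for endothelial markers 112 to 129.5, 157 to 281 and 168 to 200.4 CPM. For fibroblast markers it was 300.4 to 385, 693 to 1206 and 678 to 1067 CPM. No listed marker was at 0 in all libraries. The part of these cells in the rises of Tnf, its receptors, Tnfsf13b, Tnfrsf12a and Tnfrsf14 was not tested.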

How the data were processed

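Values are the estimated counts deposited by the authors as whole numbers, without scaling, over 21720 genes. The submitters' processing notes name bcl2fastq 2.0, HISAT2, StringTie, DESeq2 and the builds rn6 and mm39, without roles. Low values gathered at multiples of 4 (1997 values of 4 against 346 of 1), and 1 read pair was therefore treated as roughly 4 counts. In edgeR 4.0.16 (R 4.3.3), the filterByExpr filter was followed by TMM scaling; genes were tested 2-sided by a quasi-likelihood model of group over all 9 libraries, with Benjamini-Hochberg adjustment. SE is the size of the log2 fold change over the square root of F. limma 3.58.1 and DESeq2 1.42.0 served as alternatives, and fits were tested on simulated data. Exon lengths (GENCODE M21) and promoters (RefSeq, GRCm38.p6) were matched by symbol. Members in full are Tnf, its receptors, those called, their partners and the 3 highest per kilobase. Members and lists were chosen with earlier results of these data known. Figures used Python 3.11.15 and matplotlib 3.10.9. Counts of the pathway and marker lists without Model 2 and Model 3 together were added after seeing the data.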

Additional observations from a re-analysis of the deposited data

How the results depend on the processing

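Members called in Model against Normal numbered 7, and 2 to 8 with 1 library left out, and 2 without Model 2 and Model 3 together. Over all genes the 883 calls became 164 to 1164 with 1 library left out, 1965 in DESeq2, 474 with only the groups compared and 476 without Model 2 and Model 3 together. With library size alone they were 502 higher and 244 lower, against 706 and 177. Atorvastatin against Model gave 312 genes in DESeq2, and 0 to 1 with 1 library left out. Atorvastatin against Normal gave 2 members, 0 to 3 with 1 library left out, 6 in DESeq2 and 1 in limma-voom, and 270 genes, 17 to 382 with 1 library left out, 436 with library size alone, 1056 in DESeq2 and 141 in limma-voom. Library size alone shifted the median of all genes by 0.24 in Atorvastatin against Model and 0.14 against Normal. The causes were not tested.

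With the replicate number as a block, 4 members and 402 genes were called in Model against Normal, 0 and 104 in Atorvastatin against Normal, where Tnfrsf1b and Tnfrsf21 did not pass, and 0 against Model. The labels do not say that numbers pair the libraries, and deviations of same-numbered libraries correlated at -0.28 to 0.23 across genes.

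Values that changed sign had not passed. Without Model 2 and Model 3 together, Model minus Normal was -0.21 for Tnfrsf13b, 0.095 for Tnfsf13 and 0.075 for Tnfrsf25. With library size alone, 7 of the 29 members turned positive in Atorvastatin minus Model: Tnfrsf10b, Tnfrsf11a, Tnfrsf11b, Tnfrsf18, Tnfrsf23, Tnfsf9 and Tnfsf13, the last at 0.0035. With 1 library left out, 0 to 6 members changed sign in Atorvastatin minus Model and 0 to 3 in Atorvastatin minus Normal. Among those described, Model minus Normal ranged from -0.37 to 0.40 for Tnfrsf13b and from -2.32 to 0.64 for Tnfrsf13c. Atorvastatin minus Model ranged from -0.65 to 1.47 for Tnfrsf13c, from -0.45 to 0.00043 for Tnfsf13 and from -0.0043 to 0.71 for Tnfrsf9. Atorvastatin minus Normal ranged from -1.51 to 0.64 for Tnfrsf13c, from -0.036 to 0.23 for Tnfsf12 and from -1.21 to 2.08 for Tnfrsf8.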
